A study of Mus musculus with 7 samples.

Results

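Immediate early genes are switched on within minutes of a stimulus, without new protein synthesis, and in neurons the stimulus is synaptic activity and calcium entry. The 10 genes described here were Fos, Fosb, Junb, Egr1, Egr2, Egr3, Egr4, Arc, Npas4 and Nr4a1, chosen by name as a set of activity-dependent immediate early genes. Each was read by 1 probe, on 19 spots in all, out of 39429 probes on the array, and 9 of the 10 were among the 23312 features that were tested. Calcium entering through NMDA receptors and voltage-gated channels activates kinases that act on the transcription factors CREB and SRF, which bind the promoters of these genes. Most of the encoded proteins are themselves transcription factors, and after a stroke the genes are known to be induced in the first hours, in neurons and also in glial, vascular and blood cells for the less neuron-restricted members such as Fos, Junb and Egr1.

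RNA was from the brains of male C57BL/6N mice, and 1 Cy3-labelled sample was applied to each array. In 3 samples the mice lacked Pla2g2e (Pla2g2e -/-, here KO), the gene for a secreted phospholipase A2, and the brain was taken on day 3 after the middle cerebral artery had been blocked for 60 min and reopened. In another 3 the mice were wild type (WT) with the same occlusion and day, and 1 sample was from a sham-operated WT mouse. Neither the age of the mice nor the brain region is given in the sources used here, nor whether replicates were separate animals. The p-values then reflect the spread among these samples alone, and part of it may be technical.

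All KO arrays shared 1 slide, and the second slide held the WT day 3 and sham arrays. Where KO is set against WT or sham, genotype and slide therefore cannot be told apart. The arrays had 31177 to 34029 spots well above background and none saturated. The log2 signal of the Pla2g2e transcript was -4.44, -5.83 and -4.97 on KO replicates 1, 2 and 3, then -6.89, -3.68 and -3.36 on WT day 3 replicates 1, 2 and 3, and -4.69 on the sham array. WT replicates 2 and 3 were above all KO arrays, whereas WT replicate 1 was below all of them and the sham array lay among them. WT day 3 replicate 1 stood apart, with correlations of 0.857 to 0.916 with the other 6 arrays over all features, while the others correlated with each other at 0.968 to 0.991. Of fixed marker lists, all 12 neuron markers had their highest signal there, and all 10 reactive astrocyte markers and all 7 monocyte markers their lowest. Over all features, 43.9% were highest and 34.3% lowest on that array. The median of the astrocyte markers was -2.54 on it and 2.69 to 3.35 on the other 5 day 3 arrays, against 2.30 on the sham array. WT day 3 replicate 1 thus had lower astrocyte markers than the sham array, and sham lay nearer the remaining day 3 arrays in these. Other lists set sham apart from the remaining day 3 arrays. The red blood cell median was -6.04 on sham and -5.84 on WT replicate 1, against -4.28 to -2.32 on the other 5 day 3 arrays. The neutrophil median was -3.64 on sham and -7.24 on WT replicate 1, against -2.84 to -0.80. Arrays are named as labelled throughout. Whether the labels of WT replicate 1 and sham were exchanged was not tested, and every value of the WT day 3 group and of sham depends on them. Comparisons that use WT replicate 1 are therefore also given without it. Signals are log2 values relative to each array's 75th percentile of signal, and since probes differ in brightness they are compared between arrays of 1 gene and not between genes. In these bulk samples, fewer cells of a type and less RNA per cell cannot be told apart.

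The promoters of 7 members are in the RefSeq table used here, as windows from 250 bases before to 50 bases after the transcript start (build GRCm38.p6). Stretches of them are shown because CREB and its relatives bind a short core sequence, TGACG or on the other strand CGTCA, which is written in capitals together with the CArG box, the SRF site, in Egr2. Each stretch is read 5′ to 3′ on the gene's own strand:
Fos, chr12:85473741-85473848, plus strand: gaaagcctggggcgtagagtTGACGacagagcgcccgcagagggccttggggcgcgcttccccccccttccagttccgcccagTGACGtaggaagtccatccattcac
Fosb, chr7:19310081-19310125, minus strand: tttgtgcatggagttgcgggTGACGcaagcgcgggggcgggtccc
Junb, chr8:84978830-84978874, minus strand: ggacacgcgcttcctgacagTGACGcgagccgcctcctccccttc
Egr2, chr10:67537738-67537838, plus strand: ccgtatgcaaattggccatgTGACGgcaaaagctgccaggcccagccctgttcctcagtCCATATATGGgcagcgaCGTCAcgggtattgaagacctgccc
Egr4, chr6:85513674-85513786, minus strand: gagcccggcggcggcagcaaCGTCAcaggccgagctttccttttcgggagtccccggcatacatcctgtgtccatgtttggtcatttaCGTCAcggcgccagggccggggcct
Npas4, chr19:4990116-4990170, minus strand: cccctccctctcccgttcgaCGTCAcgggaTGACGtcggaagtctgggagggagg
Nr4a1, chr15:101266596-101266830, plus strand: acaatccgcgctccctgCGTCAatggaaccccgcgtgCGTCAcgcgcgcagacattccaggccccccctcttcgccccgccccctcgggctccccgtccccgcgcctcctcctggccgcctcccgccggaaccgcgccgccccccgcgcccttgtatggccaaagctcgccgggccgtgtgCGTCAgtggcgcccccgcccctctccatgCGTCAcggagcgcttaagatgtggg
Searched on both strands, and counting a gene if any of its windows held the letters, TGACG was found in all 7 of these genes and in 20.8% of the 32851 windows of the table. A count of genes and a share of windows are unlike measures, because a gene such as Egr2 has several windows. The full CREB site TGACGTCA was in 1.79% of the windows and in none of these 7 members. The CArG box was in Egr2 alone among these 7 members and in 1.63% of windows. Arc, Egr1 and Egr3 had no window and were not searched, nor were bases outside the windows. Sites of either kind there are therefore not covered. The EGR site GCGNGGGCG, the sequence that the Egr proteins bind, was in the windows of Fosb and Nr4a1 and in 5.55% of all windows. A match of letters is a description and not a measured binding site.

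The AP-1 members Fos, Fosb and Junb encode basic leucine zipper proteins, and Fos and Fosb pair with Jun family proteins such as Junb and Jun. Fos, measured on 10 spots whose standard deviation within an array was 0.06 to 0.09, read 0.90, -0.14 and 0.28 on KO replicates 1, 2 and 3, then -0.35, 0.13 and 0.55 on WT day 3 replicates 1, 2 and 3, and -0.07 on the sham array. The groups overlapped, and the lowest array was WT replicate 1, which was below the sham array as well. Fosb read -2.41, -2.75 and -2.95 on the KO arrays, -1.14, -3.02 and -2.13 on the WT day 3 arrays, and -3.20 on the sham array. Here WT replicate 1 was the highest array and sham the lowest. Junb read -2.14, -2.80 and -2.16 on the KO arrays, -3.48, -2.51 and -2.35 on the WT day 3 arrays, and -3.06 on the sham array. As for Fos, WT replicate 1 was the lowest of the 7 arrays. The probes lie on mm9, as the array's files give them, at chr12:86817900-86817959 on the plus strand (Fos), chr7:19888168-19888227 on the minus strand (Fosb) and chr8:87501881-87501940 on the minus strand (Junb).

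The EGR members are zinc finger factors that bind a shared GC-rich site. Egr1, which neurons express at rest and raise with activity, read 1.93, 0.94 and 1.70 on the KO arrays, 3.67, 1.07 and 1.12 on the WT day 3 arrays, and 0.67 on the sham array. Egr2, also a regulator of myelination in Schwann cells, read -0.52, -1.38 and -1.26 on the KO arrays, 0.16, -1.38 and -1.08 on the WT day 3 arrays, and -1.81 on the sham array. For both genes WT replicate 1 was the highest array and sham the lowest, and the other 5 day 3 arrays of the 2 genotypes overlapped. Egr4 read -3.68, -0.40 and -2.75 on the KO arrays, 2.81, -1.59 and -2.33 on the WT day 3 arrays, and -1.35 on the sham array. It had the widest spread of the tested members, with KO replicate 1 at the bottom and WT replicate 1 at the top. Their probes lie on mm9 at chr18:35024395-35024454, plus strand (Egr1), chr10:67004798-67004857, plus strand (Egr2), and chr6:85461153-85461212, minus strand (Egr4).

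Egr3, the member of the family known from muscle spindles and from learning, was well above background on 1 array only and was not tested. The probe (mm9 chr14:70479222-70479281, plus strand) read -9.07, -7.67 and -9.30 on the KO arrays, -5.26, -8.33 and -9.53 on the WT day 3 arrays, and -8.60 on the sham array. On each array, the dimmest probe that the scanner software marked as well above background lay between -7.86 and -7.00, depending on the array, so 6 of the 7 values are not well above background and have no order among themselves. WT replicate 1 was at least 4.33-fold above the mean of the other 6 arrays, each taken at the higher of its own value and that limit. No fold is given between the groups, because the bound was under 1.

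Arc, Npas4 and Nr4a1 are the members outside the 2 families. Arc, a synaptic protein that takes part in the removal of AMPA receptors, read 0.86, -0.13 and -0.49 on the KO arrays, 3.05, 0.53 and -0.16 on the WT day 3 arrays, and -0.15 on the sham array. Npas4, a transcription factor induced almost only by calcium entry in neurons, read -1.66, -1.46 and -1.24 on the KO arrays, 1.92, -1.26 and -1.69 on the WT day 3 arrays, and -1.27 on the sham array. Nr4a1, an orphan nuclear receptor expressed in neurons and in myeloid cells, read 1.80, 1.03 and 1.76 on the KO arrays, 3.45, 1.35 and 1.39 on the WT day 3 arrays, and 1.19 on the sham array. In all 3 genes WT replicate 1 was the highest array and the other 6 overlapped between groups. Npas4 had the narrowest range of the 9 tested members over those 6 arrays, 0.45 on the log2 scale, followed by Nr4a1 at 0.77, whereas Egr4 spanned 3.27 and the rest 0.92 to 1.35. The probes lie on mm9 at chr15:74499592-74499651, minus strand (Arc), chr19:4984356-4984415, minus strand (Npas4), and chr15:101105071-101105130, plus strand (Nr4a1).

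**Figure D1:**
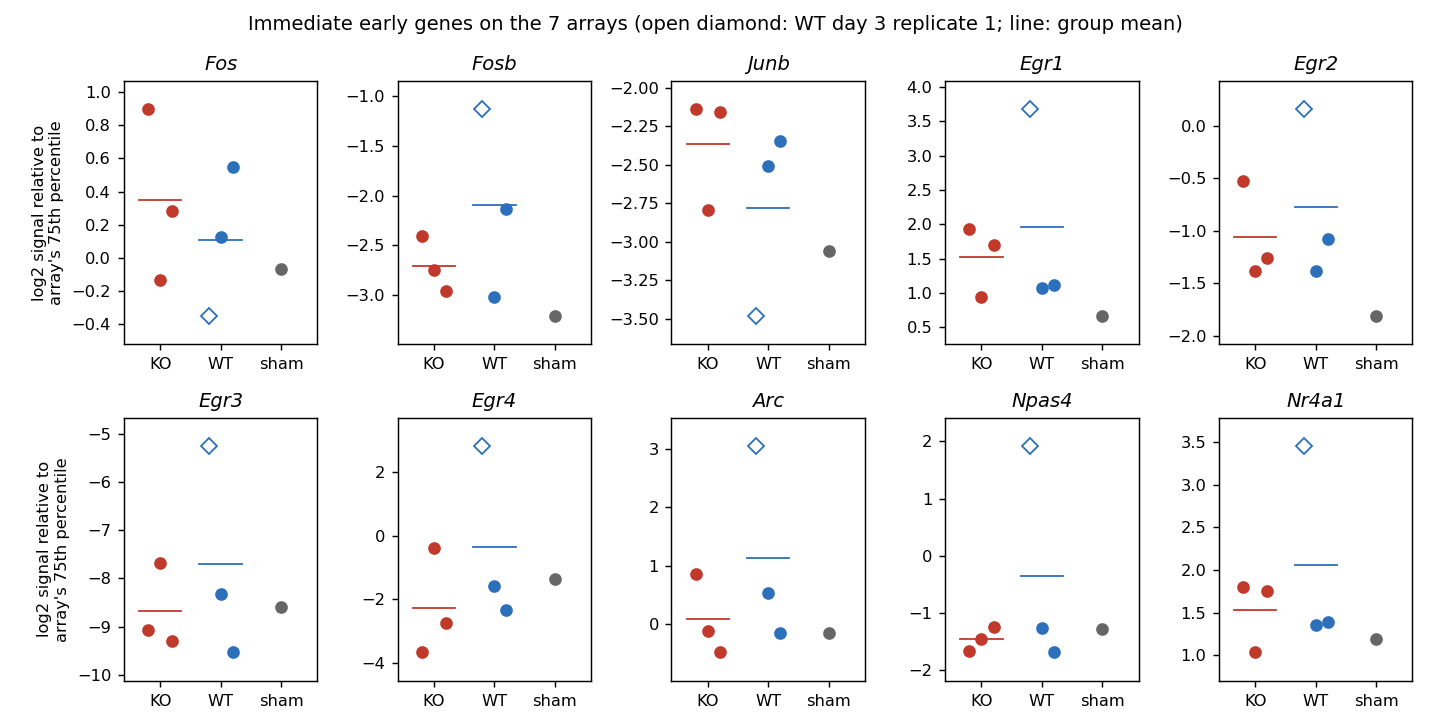
Log2 signal relative to the array's 75th percentile (vertical axis) of each of the 10 genes on the KO day 3, WT day 3 and sham arrays. Points are arrays, the open diamond is WT day 3 replicate 1, which is the highest array in 8 panels and the lowest for Fos and Junb, and lines are group means.

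The data of these genes were dominated by 1 array. WT day 3 replicate 1 was above each of the other 6 arrays for 7 of the 9 tested members (Egr4, Npas4, Arc, Egr1, Nr4a1, Fosb and Egr2) and below each of them for the other two, Fos and Junb. Over all features the same was the case for 43.9% above and 34.3% below, so most features placed this array at 1 end. It was at least 2-fold above the highest of the other 6 for 5 of the 9 members, against 12.8% of all features. Egr4 was 9.31-fold above the next highest array, Npas4 8.93-fold, Arc 4.55-fold, Egr1 3.36-fold and Nr4a1 3.13-fold, while Fosb was 2.00-fold (just short of 2) and Egr2 1.60-fold above it. Fos on this array was 1.16-fold and Junb 1.34-fold below the lowest of the others. Against the median of the other 6 arrays the differences on the log2 scale ran between 4.77 for Egr4 and -1.05 for Junb. These are values of 1 array and carry no test.

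**Figure D2:**
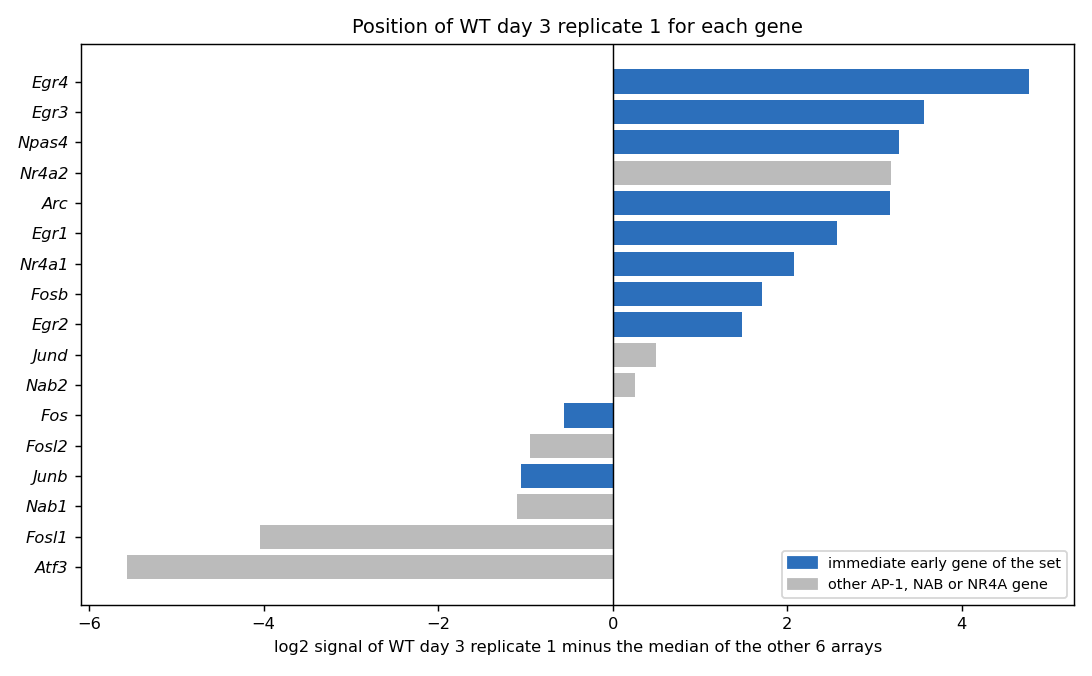
Log2 signal of WT day 3 replicate 1 minus the median of the other 6 arrays (horizontal axis) for each of the 10 genes and for the other family members. Egr4 lies at 4.77 and Atf3 at -5.57, Fos and Junb lie left of 0, and for Egr3 the other 6 arrays were not well above background.

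Markers of several cell types moved with that array. Those of oligodendrocytes did not, with a median of 2.97 on it, inside 1.99 to 3.61 on the other 6. The median signal of the 12 neuron markers was 4.10 on this array, and 0.52 to 2.41 on the remaining 6, and that of the 10 reactive astrocyte markers was -2.54, against 2.30 to 3.35. The median of the 7 monocyte and macrophage markers was -3.68 on it, against 1.55 to 2.61, and that of the 12 microglia and phagocyte markers 0.96, against 3.94 to 4.48. Of these 12, 10 were lowest on it and 2, Itgam and P2ry12, highest, against 34.3% and 43.9% of all features. For the phagocyte markers the other 5 day 3 arrays had medians of 3.94 to 4.45, and the sham array 4.48. When the median of the neuron markers was subtracted on each array, WT replicate 1 remained above the other 6 for 1 of the 9 tested members, Egr4, at -1.28 against a highest value of -2.82. Npas4 then read -2.18 on it, inside the range of -3.87 to -1.76 on the others, Arc -1.05 inside -2.54 to -0.52, Egr1 -0.42 inside -1.69 to 1.18, and Nr4a1 -0.64 inside -1.38 to 1.24. Fos read -4.44 on it, against a lowest value of -2.55 on the others, and Junb -7.58 against -5.42. Both were bound to stay lowest there, because this array already had their lowest signals and the highest neuron median. Whether the content of neurons accounts for the differences between arrays was not tested.

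KO and WT brains on day 3 were compared to ask whether loss of Pla2g2e changes the transcripts after ischemia. None of the 9 tested members passed the threshold, an adjusted p of 0.05 in limma, and 0% of all features did (the smallest adjusted p was 0.141, and 197 features fell under 0.05 before adjustment). Fos averaged 0.35 ± 0.52 in KO and 0.11 ± 0.45 in WT brains (SD, n = 3 each). It thus differed by 0.24 ± 0.37 (SE, adjusted p = 0.863 in limma), and Junb by 0.41 ± 0.38. The other 7 had negative differences, KO minus WT. Egr4 averaged -2.28 ± 1.69 in KO and -0.37 ± 2.78 in WT brains, a difference of -1.91 ± 1.58 (limma adjusted p = 0.862). Npas4 averaged -1.46 ± 0.21 in KO and -0.35 ± 1.97 in WT brains, a difference of -1.11 ± 0.97. The WT spread of Npas4 came from replicate 1. Differences of the remaining 5 were -1.05 ± 0.90 for Arc, -0.61 ± 0.50 for Fosb, -0.53 ± 0.64 for Nr4a1, -0.43 ± 0.78 for Egr1 and -0.29 ± 0.48 for Egr2, with adjusted p between 0.862 and 0.869. The median over the 9 was -0.53, against -0.03 over all features. With 3 arrays against 3, an exact permutation test of a single gene could not go below p = 0.1.

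Without WT replicate 1 the differences shrank in absolute size, though that of Egr1 (-0.43 with all arrays) hardly did. That of Npas4 was 0.02 ± 0.21, of Egr4 -0.32 ± 1.03, of Arc -0.10 ± 0.47, of Fosb -0.13 ± 0.33, of Fos 0.01 ± 0.35 and of Junb 0.06 ± 0.25. Those of Egr1, Egr2 and Nr4a1 changed sign, to 0.42 ± 0.33, 0.18 ± 0.31 and 0.16 ± 0.28, as that of Npas4 did. Of the 9 members 6 were then higher and 3 lower in KO brains, with a median of 0.02, against 0.00 over all features. None passed the threshold in limma, and again 0% of features did (380 had an unadjusted p under 0.05). No member had all KO arrays above or all below the WT day 3 arrays, against 1.88% and 2.65% of features, and none separated KO from WT replicates 2 and 3, against 6.32% of features above and 5.33% below.

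**Figure D3:**
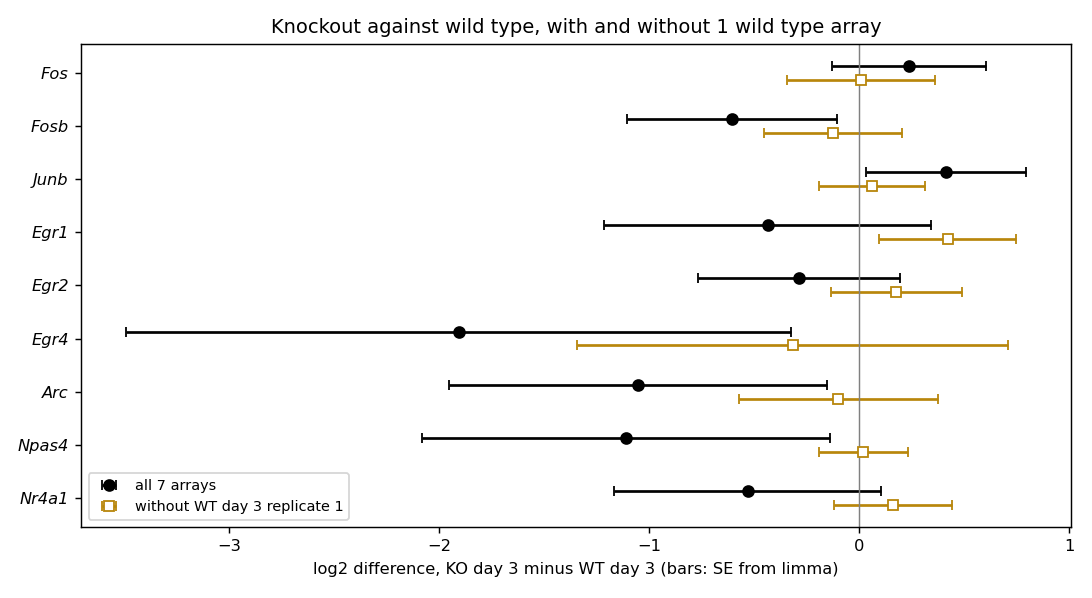
Log2 difference, KO day 3 minus WT day 3 (horizontal axis), of the 9 tested genes with all arrays and without WT day 3 replicate 1, with bars giving the SE from limma. With all arrays 7 genes lie left of 0, and without that array the points lie between -0.32 and 0.42.

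The day 3 arrays were also set against the sham array, a single sample that is assumed to vary like the others. Both comparisons share that sample. No member passed the threshold in limma in either (adjusted p = 1 for each). Of all features, 0.0129% passed in KO against sham, where 304 had an unadjusted p under 0.05, and 0.0129% in WT day 3 against sham, where 261 did. In KO against sham 7 of the 9 members were higher, with a median difference of 0.42 against 0.00 over all features. In WT day 3 against sham all 9 were higher, with a median of 0.98 against 0.03. Egr1 differed from sham by 0.85 ± 1.1 in KO and 1.29 ± 1.1 in WT brains (SE). In KO brains Egr2 differed by 0.76 ± 0.68, Fosb by 0.50 ± 0.71 and Junb by 0.69 ± 0.54, and in WT brains Egr2 by 1.04 ± 0.68, Fosb by 1.11 ± 0.71 and Junb by 0.28 ± 0.54. Fos differed by 0.42 ± 0.52 in KO and 0.18 ± 0.52 in WT brains, Nr4a1 by 0.34 ± 0.90 in KO and 0.87 ± 0.90 in WT brains, and Egr4 by -0.93 ± 2.24 in KO and 0.98 ± 2.24 in WT brains. Each of these errors was a large part of its difference or exceeded it. Arc differed by 0.23 ± 1.27 in KO and 1.28 ± 1.27 in WT brains, and Npas4 by -0.18 ± 1.38 in KO and 0.93 ± 1.38 in WT brains.

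Without WT replicate 1, 7 of the 9 members were higher in WT day 3 than in sham, with a median of 0.41, while Egr4 and Npas4 had differences of -0.61 ± 1.38 and -0.20 ± 0.28 on the log2 scale (SE). The other differences were then 0.43 ± 0.44 for Egr1, 0.58 ± 0.42 for Egr2, 0.63 ± 0.44 for Fosb, 0.63 ± 0.34 for Junb, 0.41 ± 0.47 for Fos, 0.33 ± 0.64 for Arc and 0.18 ± 0.38 for Nr4a1. No member passed the threshold in limma, while 0.0343% of features did in KO against sham and 0.0257% in WT against sham. The sham array was below each of the 5 other day 3 arrays for 4 members (Fosb, Junb, Egr1 and Egr2), against 24.9% of features, and above each of them for none, against 21.8%. Endothelial markers had a median of 1.43 to 2.36 on the KO arrays and 2.13 to 2.18 on WT replicates 2 and 3, against 1.27 on the sham array. Neutrophil markers had -2.84 to -0.80 in KO and -1.21 to -1.13 in these WT replicates, against -3.64 on the sham array. The part that these cells have in the differences was not tested.

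Leaving out WT replicate 1, KO replicate 1 was above each of the other 5 arrays for 6 of the 9 tested members (Fos, Junb, Egr1, Egr2, Arc and Nr4a1), against 25.6% of features. Under quantile normalisation Junb was not among these. The same array had the highest median of the red blood cell markers, -2.32, against -6.04 to -3.84 on the others. Its endothelial median, 2.36, was only slightly above the others, at 1.27 to 2.26. Monocyte and neutrophil medians were highest there too, and those of neurons, reactive astrocytes, microglia and oligodendrocytes were not. The part of these cells in the signals of the members was not tested. Among the 3 other members, Fosb was highest on WT replicate 3 and Npas4 on KO replicate 3. Egr4 was highest on KO replicate 2.

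Egr4 did not follow the other members among the 6 arrays. The root mean square distance between its centred signals and the centred mean of the 9 tested members was 1.14 on the log2 scale, against 0.224 (Nr4a1) to 0.386 (Arc) for the rest. Its order over the 6 arrays was KO replicate 2, sham, WT replicate 2, WT replicate 3, KO replicate 3 and KO replicate 1. Markers of striatal projection neurons, the main neurons of the striatum, a region within the supply of the occluded artery, had medians of 1.84 on KO replicate 2, 1.11 on sham, -0.36 on WT replicate 2, -0.59 on WT replicate 3, -1.64 on KO replicate 1 and -1.78 on KO replicate 3. The top 4 arrays were in the same order for Egr4 and these markers, and on WT replicate 1 both were at their highest, with a marker median of 4.42. The order was not particular to striatal markers: the medians of the 12 general neuron markers were 2.41 on KO replicate 2, 2.36 on sham, 1.84 on WT replicate 2, 1.66 on WT replicate 3, 1.38 on KO replicate 1 and 0.52 on KO replicate 3. Npas4 had no such order. Fos ran nearly the other way. It read 0.90 on KO replicate 1, 0.55 on WT replicate 3, 0.28 on KO replicate 3 and 0.13 on WT replicate 2. Sham (-0.07), KO replicate 2 (-0.14) and WT replicate 1 (-0.35) had its lowest values. The part of striatal or other neurons in the Egr4 and Fos signals was not tested.

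**Figure D4:**
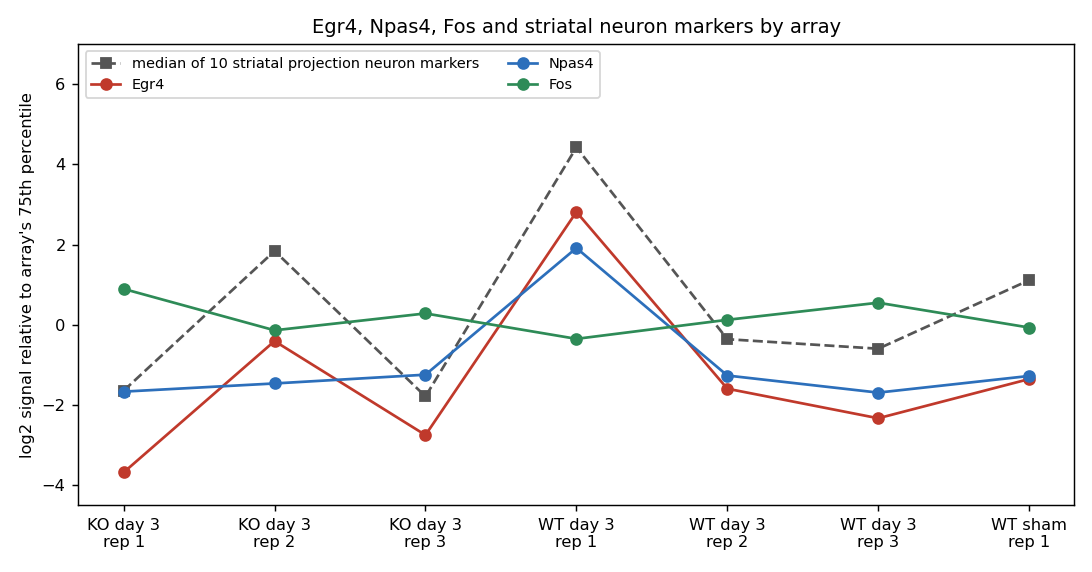
Log2 signal relative to the array's 75th percentile (vertical axis) of Egr4, Npas4, Fos and the median of 10 striatal projection neuron markers on each of the 7 arrays. The shapes of the lines can be compared, but not their heights. Egr4 and the marker median are high on WT day 3 replicate 1, KO replicate 2 and sham.

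Of the 9 other genes of the same families, 7 passed the filter on low signals (not Jun or Nr4a3), and none passed the threshold in limma in any comparison. WT replicate 1 was above the other 6 arrays for 3 (Nr4a2, Nab2 and Jund) and below them for 4 (Fosl1, Fosl2, Atf3 and Nab1), against 43.9% and 34.3% of all features. Nr4a2, the nuclear receptor nearest to Nr4a1, read 1.79 there and -2.24 to -0.20 on the remaining 6 arrays, and KO minus WT was -1.48 ± 0.92 with all arrays and -0.44 without it. Fosl1, an AP-1 partner induced by growth factors, read -6.57 on it, against -2.85 to -1.68, and its difference was 1.75 ± 1.18 with it and 0.40 without. Atf3, a stress-induced factor, read -4.63 on it, against 0.08 to 1.47, and its difference was 1.73 ± 1.61 with it and -0.14 without. Nab1 and Nab2, corepressors of the Egr proteins, lay on opposite sides, at -0.63 against 0.11 to 0.66 and at 1.87 against 1.15 to 1.74. Differences of the other 4 between KO and WT were 0.37 ± 0.37 for Nab1, -0.22 ± 0.23 for Nab2, -0.09 ± 0.22 for Jund and 0.06 ± 0.42 for Fosl2. Without WT replicate 1 they were 0.0064 for Nab1, -0.15 for Nab2, 0.07 for Jund and -0.27 for Fosl2, so that Jund and Fosl2 changed sign.

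Further lists of the pathway had no gene past the threshold in limma in any comparison. The list of 30 rapid response genes, feedback phosphatases and growth regulators that many cell types induce, had 24 higher and 6 lower in KO than WT, with a median of 0.56, and without WT replicate 1 it had 10 higher and 20 lower, with a median of -0.04. WT replicate 1 was below all other arrays for 22 of them and above for 2, against 34.3% and 43.9% of all features. Gadd45g, a growth arrest gene, differed by 0.54 ± 0.31, Dusp5, a MAP kinase phosphatase, by 1.02 ± 0.60 and Ccn1, a secreted matrix protein, by 1.40 ± 0.86, each with a limma adjusted p of 0.862. Without WT replicate 1 the differences were 0.31 for Gadd45g, 0.51 for Dusp5 and 0.46 for Ccn1. In KO against sham 29 of the 30 were higher, with a median of 0.68, and in WT day 3 against sham 28 were higher without WT replicate 1, with a median of 0.71, and 19 with it, with a median of 0.12.

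The list of synaptic activity effectors had 22 genes, of which 2 were higher and 20 lower in KO than WT, with a median of -0.75. Without WT replicate 1 there were 7 higher and 15 lower, with a median of -0.14. That array was above all others for 20 of the 22 and below for the other 2, against 43.9% and 34.3% of all features. Nptx1, a synaptic pentraxin, differed by -1.75 ± 0.83, Bdnf, a neurotrophin, by -1.51 ± 0.79 and Nrn1, a neurite growth factor, by -1.99 ± 1.25 (limma adjusted p = 0.862), and without that array the differences were -0.92, -0.64 and -0.76. Nptx1 was near the floor: on KO replicate 1 it read -8.06, below that array's dimmest signal well above background, -7.00. The size of both its differences is therefore uncertain. In KO against sham 4 effectors were higher and 18 lower, with a median of -0.43. All 12 neuron markers were lower in that comparison too, with a median of -1.05, as were all 10 striatal and 9 of 10 cortical markers. Penk and Pdyn are in both the effector and the striatal list, so those lists are not independent. The part of neurons in the values of the effectors was not tested. The 31 genes of the upstream pathway, receptors, calcium channels, kinases and transcription factors, had 8 higher and 23 lower in KO than WT, with a median of -0.34 with all arrays and -0.06 without WT replicate 1. Cacna1c, a voltage-gated calcium channel, differed by -0.94 ± 0.66, Mef2d, a transcription factor, by -0.39 ± 0.27, and Prkaca, a catalytic subunit of protein kinase A, by -0.32 ± 0.23. Without WT replicate 1 they differed by -0.18 (Cacna1c), -0.15 (Mef2d) and -0.24 (Prkaca).

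Among 15037 genes with an ordinary symbol that were well above background on all arrays, those closest to the centred mean of the 9 members over the 7 arrays were Cacng1, Otof, Ttl, Myl4, 4930432M17Rik, Rundc1, Shank3, Rims1, Dbn1 and Disc1, at root mean square distances of 0.101 to 0.155 on the log2 scale. Among the members themselves Nr4a1 was closest at 0.213 and Egr4 farthest at 1.47. Over the 6 arrays without WT replicate 1 the closest were Lce1j, Fhl3, Efna3, Epn3, Snd1, Eef1b2, Sympk, Atp5h, Krt16 and Cebpz, at 0.0277 to 0.0361, and 0 genes were in both groups of 10. The members lay much farther from their own mean over these 6 arrays, at 0.224 (Nr4a1) to 1.14 (Egr4). Likeness to that mean is therefore not likeness to a single member. Likeness over 7 or 6 arrays is a description of these samples.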

How the data were processed

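Total RNA from 7 mouse brain samples was labelled with Cy3 after amplification (Low Input Quick Amp), per the labels' protocols. The spot intensities deposited are scanner output (Agilent Feature Extraction, version 11.5.1.1), and background had been subtracted within each array, per the file headers. The series-wide value table, as deposited, was a ratio on a linear scale. It equalled the processed signal divided by the 75th percentile of its array to within 0.0428%, with column medians of 0.0863 to 0.0976, and served as an alternative only. The arrays' number limits the precision. Probe positions are those of the files, on mm9.

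Processed signals were put on the log2 scale, less the array's 75th percentile over spots other than controls. Outlier spots were left out (91 to 147 per array, none of a member) and spots of a probe were averaged. A probe was kept if 3 of the 7 arrays or more had it well above background, and the brightest stood for its gene. Of 39429 probes 28315 had an accession matched to RefSeq (GRCm38.p6), used for names, and 28 had no value on some array. Groups were compared in R 4.3.3 using lmFit and eBayes of limma 3.58.1 (all 3 groups in 1 model, two-sided, 4 residual and 1.68 prior degrees of freedom) with Benjamini-Hochberg adjustment over 23312 features at 0.05. The steps were tested on simulated data. Figures were made in matplotlib 3.10.9 under Python 3.11.15. From each pathway list the 3 genes with the smallest unadjusted p between KO and WT are named, and all of the other family members. The members and lists were chosen with earlier results of these data known.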

Additional observations from a re-analysis of the deposited data

How the results depend on the processing

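Between KO and WT day 3, limma called 0 features under every alternative: normexp with quantile normalisation, quantile normalisation, the 75th percentile over probes well above background on all arrays, the deposited ratios, no filter, a stricter filter, probe means, and each array left out. No member passed the threshold under any of these. The labels do not say that a replicate number marks a shared animal, litter or day, so the numbers were not taken as pairs. Day 3 replicates that share a number had deviations correlated at -0.38, -0.556 and 0.353. These values cannot show or exclude pairing, because WT replicate 1 dominated the WT deviations. WT replicates 2 and 3 had nearly the same correlation with each KO array (0.317 and 0.374 with KO replicate 1). With a replicate block in limma 0 features were called and 149 had an unadjusted p under 0.05.

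WT day 3 against sham, with 3 features called, gave 0 with normexp and quantile, with quantile, with the percentile over detected probes and with the stricter filter, and 0 to 6 with 1 array left out, 6 being without WT replicate 1. KO against sham, with 3 called, gave 0 with normexp and quantile, with quantile and with the stricter filter, and 0 to 8 with 1 array left out, 8 being without WT replicate 1. The cause was not tested. The count of members for which WT replicate 1 was above the others, 7, was 1 relative to the neuron markers, an alternative chosen after seeing the data.

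With 1 array left out, KO minus WT ran between -0.0351 and 0.48 for Fos, -0.88 and 0.42 for Egr1, -0.59 and 0.18 for Egr2, -1.78 and 0.0203 for Npas4, and -0.89 and 0.16 for Nr4a1. The upper ends of the last 4 were without WT replicate 1 (also with sham left out), and the lower end of Fos was without KO replicate 1. WT day 3 minus sham ran between -0.0446 and 0.41 for Fos, -0.61 and 1.96 for Egr4, and -0.20 and 1.60 for Npas4. KO minus sham ran between -0.16 and 0.52 for Arc. With 1 sham array and all KO arrays on 1 slide, neither the sham spread nor the slide can be separated from the group, and Egr3 is limited by its signal over background.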
